A study of Mus musculus with 4 samples.

Results

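The Myc and Max network is a set of transcription factors that compete for a shared DNA-binding partner. The genes described here were chosen by name in the deposited expression table. They are the Myc family genes *Myc*, *Mycn* and *Mycl*, the partner *Max*, the antagonists *Mxd1*, *Mxd4*, *Mxi1*, *Mnt* and *Mga*, and *Odc1*, a target gene of Myc. All 10 were among the 53465 genes in the table, and 9 of them passed the filter on low values. *Mycn* did not pass it.

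RNA from mouse female germline stem cells (FGSCs), a line labelled as coming from ovary, was sequenced as Long RNA-seq. The shNC FGSCs carried a control shRNA and the shNAT10 FGSCs carried an shRNA against *Nat10*, each in 2 libraries, and the labels give no strain, age or time. According to the methods, the shRNAs were delivered by lentivirus and the infected cells were selected with puromycin or blasticidin S, so the shNC cells also went through infection and selection. The study's legend calls the libraries of a group biological replicates. Neither it nor the labels say whether they came from separate infections, and p-values measure the spread between these libraries. NAT10 is the enzyme that writes N4-acetylcytidine (ac4C) on RNA, and the comparison asks what its depletion does to the transcriptome.

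Myc proteins bind DNA only as a dimer with Max. The Myc-Max dimer recognises the E-box CACGTG and activates genes of ribosome biogenesis, nucleotide synthesis and cell growth. The Mxd proteins, Mxi1 and Mnt also pair with Max, bind the same E-box and bring Sin3 corepressor complexes to it. Mga joins Max in a Polycomb-related repressor that silences germline genes in other cells. *Odc1* encodes ornithine decarboxylase, the rate-limiting enzyme of polyamine synthesis and a classical E-box target of Myc.

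The E-box was searched for in the RefSeq promoter windows of GRCm38.p6, each running from 250 bases before to 50 bases after a start site. Of the 10 genes, 9 had a window, *Myc* being the exception, and 3 of these 9 (33.3%) held CACGTG. Of all 27025 genes with a window, 8.09% held it, and of the 11014 genes with a window that were also tested for expression, 11.2% did. The motif reads the same on both strands. The windows of *Max*, *Mxd4* and *Mnt* are printed because they hold the letters that the network itself binds, with CACGTG in capitals, and the window of *Odc1* because it is the Myc target of the set and its window has no CACGTG. All are written 5′ to 3′ on the strand of the gene, at chr12:76962199-76962498 (minus strand) for *Max*, chr5:34187661-34187960 (minus strand) for *Mxd4*, chr11:74830674-74830973 (plus strand) for *Mnt* and chr12:17544623-17544922 (plus strand) for *Odc1*.
Max: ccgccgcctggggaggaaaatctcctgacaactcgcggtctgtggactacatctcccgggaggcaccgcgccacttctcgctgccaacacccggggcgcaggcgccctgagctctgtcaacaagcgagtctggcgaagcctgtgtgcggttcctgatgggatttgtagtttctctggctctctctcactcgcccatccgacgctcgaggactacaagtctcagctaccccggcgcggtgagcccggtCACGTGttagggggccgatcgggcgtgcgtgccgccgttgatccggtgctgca
Mxd4: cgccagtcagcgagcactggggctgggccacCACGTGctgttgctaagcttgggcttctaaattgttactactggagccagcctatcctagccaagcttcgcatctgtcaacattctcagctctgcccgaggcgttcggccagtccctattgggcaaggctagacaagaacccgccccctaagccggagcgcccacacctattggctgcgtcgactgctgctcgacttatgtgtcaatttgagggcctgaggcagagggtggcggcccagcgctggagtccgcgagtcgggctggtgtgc
Mnt: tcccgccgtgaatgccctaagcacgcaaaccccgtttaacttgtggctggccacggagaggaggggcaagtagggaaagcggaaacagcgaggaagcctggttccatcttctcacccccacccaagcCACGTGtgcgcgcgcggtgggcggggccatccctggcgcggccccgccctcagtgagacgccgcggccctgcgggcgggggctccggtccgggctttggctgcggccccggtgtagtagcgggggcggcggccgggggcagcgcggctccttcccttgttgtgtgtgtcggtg
Odc1: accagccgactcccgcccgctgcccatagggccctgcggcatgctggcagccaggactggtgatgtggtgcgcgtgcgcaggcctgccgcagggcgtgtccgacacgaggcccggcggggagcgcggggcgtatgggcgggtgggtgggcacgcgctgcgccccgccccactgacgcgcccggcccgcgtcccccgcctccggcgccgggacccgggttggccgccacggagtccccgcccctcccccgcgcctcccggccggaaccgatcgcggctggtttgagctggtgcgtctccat
The motif began 3 bases before the start site of *Max*, 123 bases before that of *Mnt* and 219 bases before that of *Mxd4*. The windows of *Mycn*, *Mycl*, *Mxd1*, *Mga* and *Odc1* and the 3 windows of *Mxi1* did not contain these letters, which says nothing of sites elsewhere in those genes. A match is a description of the sequence, and binding was not measured here.

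The fragments recovered from the deposited FPKM, fragments per kilobase of exon over a divisor for each library that here follows a median-ratio scaling, totalled 11057922 to 14902438 per library. *Nat10* was at 7.79 and 5.42 FPKM in shNC against 2.95 and 3.04 FPKM in shNAT10. This was a difference of -1.09 on the log2 scale (standard error 0.21; adjusted p = 0.123 by limma, with the adjustment of Benjamini and Hochberg; adjusted p = 1.65e-05 by limma-voom on the recovered fragments). It was -0.83 without shNC-1 and -1.35 without shNC-2, both past the threshold for differential expression. It was -1.07 without shNAT10-1 and -1.11 without shNAT10-2, neither of which passed. Loci where rRNA reads map took 45.4% and 35.1% of the fragments in shNC and 23.2% and 25.1% in shNAT10. Of 8 germline markers, 4 (*Dazl*, *Pou5f1*, *Dppa3*, *Tfap2c*) were at 0 in every library, *Ddx4* had 2 fragments in all, and only *Ifitm3* was above 1 FPKM, at 9.29 and 22.2 FPKM in shNC against 27.1 and 33.6 FPKM in shNAT10. *Prdm1* had 6 fragments in every library. The germline label was therefore not borne out by most of its markers in these libraries. The study characterized its FGSCs separately, by RT-PCR for *Oct4* (*Pou5f1*), *Ddx4*, *Fragilis* (*Ifitm3*) and *Blimp1* (*Prdm1*) and by immunofluorescence for DDX4 and OCT4. The 6 pan-leukocyte markers were all above 1 FPKM, with a summed level of 465 and 510 FPKM in shNC against 383 and 402 FPKM in shNAT10. Among 10 mast cell markers, 4 were above 1 FPKM and *Fcer1a* and *Tpsb2* were at 0, and the summed level was 313 and 323 FPKM in shNC against 323 and 318 FPKM in shNAT10. No granulosa cell marker reached 1 FPKM, *Foxl2* and *Fshr* being at 0, and 3 of 6 fibroblast markers did, with *Lum* at 0 and sums of 51.7 and 44.8 FPKM in shNC against 60.7 and 51.4 FPKM in shNAT10. By limma *Cd53*, *Laptm5* and *Lcp1* of the leukocyte list were DEGs lower in shNAT10 (log2 fold changes of -0.58, -0.64 and -0.37). Of the mast cell list, *Kit* (-0.60) and *Gata2* (-0.33) were lower and *Ms4a2* (2.12) was higher, and of the fibroblast list *Pdgfra* (0.83) and *Col3a1* (0.98) were higher. *Cpa3* and *Dcn*, which carry most of the mast cell and fibroblast sums, were not DEGs. The rRNA share and the pan-leukocyte sum were higher in both shNC libraries than in both shNAT10 libraries. The part of these moves in the results on the Myc and Max network was not tested.

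FPKM is per length, so the levels of the genes can be compared with each other. In every library *Odc1* was the highest, followed by *Max*, *Mxd4*, *Myc*, *Mga* and *Mxd1*, with *Mycl* and *Mycn* last. *Odc1* stood apart at 41.9 to 59.0 FPKM. *Max* lay at 18.4 to 20.4 FPKM in all 4 libraries, above *Mxd4* at 12.5 to 16.4 FPKM, while the ranges of *Mxd4* and *Myc* (9.27 to 13.9 FPKM) overlapped. *Mnt* and *Mxi1* could not be ordered, since *Mnt* was above *Mxi1* in 3 libraries and below it in shNC-2, and both stayed between 0.737 and 1.67 FPKM. *Myc* made up 96.7% to 97.4% of the summed FPKM of the 3 Myc family genes.

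**Figure D1:**
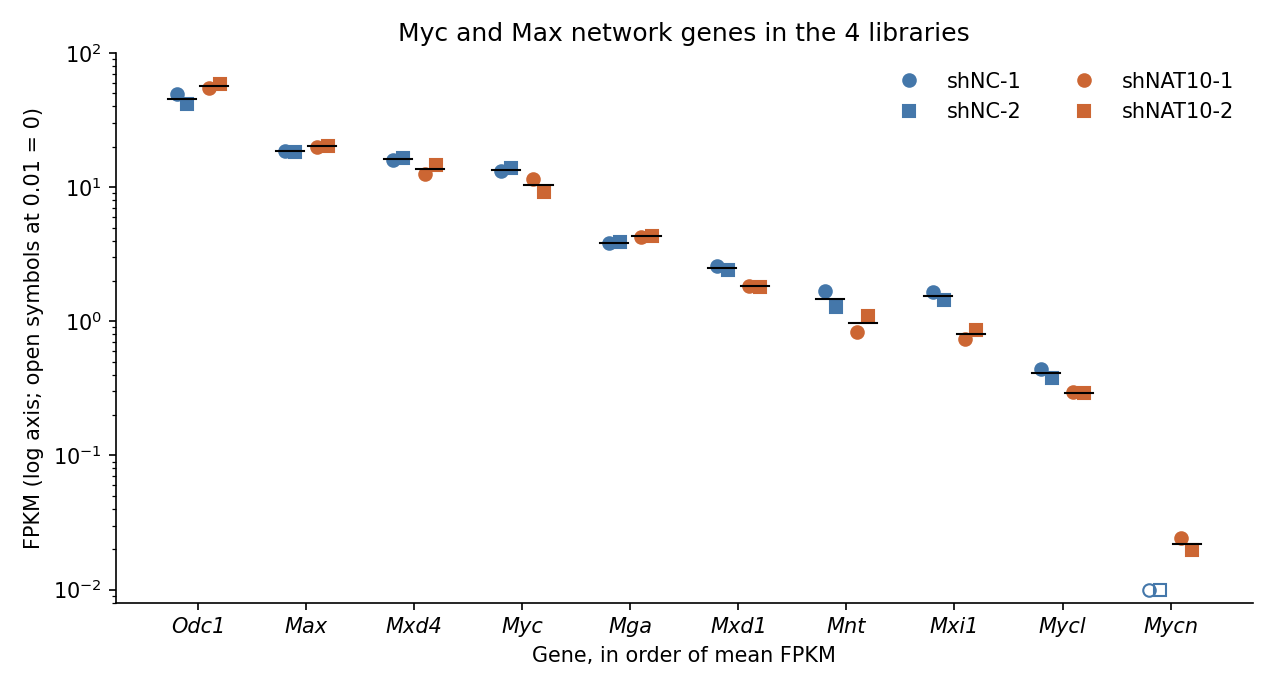
FPKM of the 10 genes in each library on a log axis, in the order of their mean level, with shNC libraries in blue, shNAT10 libraries in orange and a bar at each group mean. *Odc1* sits highest at 41.9 to 59.0 FPKM and *Mycn* lowest, at 0 in both shNC libraries (open symbols).

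Over the 20116 genes whose mean FPKM was 0.1 or more, the groups were compared on log2(FPKM + 0.1) with limma, two-sided. The threshold in the study's legend, a fold over 1.2 in either direction with an unadjusted p no higher than 0.05, defined a DEG. Across all genes 8.41% were DEGs higher in shNAT10 and 7.83% were DEGs lower in shNAT10. Of the 9 tested network genes, 3 (*Myc*, *Mxd1* and *Mxi1*) were lower, 1 (*Odc1*) was higher and 5 did not pass the threshold. An adjusted p under 0.05 was reached by 0.437% of all genes (88) and by 0 of the 9 by limma, of which 4 had an unadjusted p under 0.05, as 16.6% of all genes did. When limma-voom was run on the recovered fragments, 7.88% of genes had an adjusted p under 0.05, and *Mxi1* was the 1 network gene among them. The shNC and shNAT10 values did not overlap for any of the 9 genes, against 48.0% of all genes tested. With 2 libraries against 2, the exact two-sided permutation p of each of the 9 was 0.3333, the smallest that the design allows. Beside that exact p, the unadjusted p by limma was 0.0123 for *Mxi1*, 0.0399 for *Myc*, 0.0406 for *Mxd1* and 0.0412 for *Odc1*, so 3 of the 4 DEGs lay just inside the threshold. It was 0.0816 for *Mxd4*, 0.0857 for *Mnt*, 0.215 for *Max*, 0.253 for *Mga* and 0.358 for *Mycl*. A lower level can mean fewer cells of a type or less RNA per cell, which bulk libraries cannot tell apart.

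Positions of genes are those of GENCODE M21 on GRCm38, the assembly that mm10 names. *Myc*, the main activator of the network, lies on chromosome 15 (plus strand) between positions 61985391 and 61990374. Its level was 13.1 and 13.9 FPKM in shNC against 11.4 and 9.27 FPKM in shNAT10. Both shNAT10 libraries were below both shNC libraries, and the gap between the shNAT10 libraries was wider than that between the groups' nearest values. *Myc* fell by 0.39 on the log2 scale (standard error 0.14; 95% interval -0.75 to -0.03; adjusted p = 0.274 by limma). The difference was -0.54 without shNAT10-1 and -0.24 without shNAT10-2, and with 1 library left out it passed the threshold only without shNAT10-1. It also did not pass when limma was run without the trend. The values rest on 386 to 448 fragments per library.

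The other Myc family genes were far below *Myc* in level. *Mycl*, the family member first found in lung cancer, lies on chromosome 4 (plus strand) between positions 122995652 and 123002485. Its level was 0.443 and 0.375 FPKM in shNC against 0.296 and 0.291 FPKM in shNAT10, from 15 to 21 fragments per library. Its log2 fold change of -0.37 had a 95% interval of -1.32 to 0.59 (adjusted p = 0.646 by limma) and did not pass the threshold. *Mycn*, the family member of neural and other progenitor cells, lies on chromosome 12 (minus strand) between positions 12936093 and 12941914. It had 0 fragments in both shNC libraries and 1 fragment in each shNAT10 library (0.0242 and 0.0198 FPKM), under the floor of 3 fragments, and it is given no fold change here.

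*Max*, the shared partner of the other factors in the set, lies on chromosome 12 (minus strand) between positions 76937269 and 76962201. Its level was 18.7 and 18.4 FPKM in shNC against 19.9 and 20.4 FPKM in shNAT10. Both shNAT10 libraries were above both shNC libraries, by a small step, and the libraries of a group were close to each other. Its log2 fold change of 0.12 (standard error 0.08; 95% interval -0.10 to 0.34; adjusted p = 0.553 by limma) was below the threshold in fold and in p.

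Of the antagonists, *Mxi1* had the lowest log2 fold change. *Mxi1*, an Mxd family repressor also named Mxd2, lies on chromosome 19 (plus strand) between positions 53310518 and 53375810. Its level was 1.65 and 1.44 FPKM in shNC against 0.737 and 0.859 FPKM in shNAT10, and the groups were well separated. *Mxi1* fell by 0.87 on the log2 scale (standard error 0.22; 95% interval -1.45 to -0.30; adjusted p = 0.186 by limma). The adjusted p was 0.00852 by limma-voom on the recovered fragments. Leaving out each library in turn kept the log2 fold change between -0.97 and -0.78, but p rose above 0.05 each time. The exons of *Mxi1* overlap those of *Gm10197* on the other strand, which was at 7.20 and 2.51 FPKM in shNC against 4.36 and 3.25 FPKM in shNAT10, with overlapping groups.

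*Mxd1*, the repressor that replaces Myc on Max as many cell types stop dividing and mature, lies on chromosome 6 (minus strand) between positions 86647042 and 86669161. Its level was 2.59 and 2.41 FPKM in shNC against 1.85 and 1.79 FPKM in shNAT10. The libraries of a group lay closer to each other than to the other group. *Mxd1* fell by 0.44 on the log2 scale (standard error 0.15; 95% interval -0.84 to -0.03; adjusted p = 0.277 by limma). Without any 1 library the difference was -0.49 to -0.39, and p was above 0.05 each time, as it was with all libraries scaled to the same protein-coding FPKM total.

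*Mxd4* had the highest level among the antagonists in the set and made up 62.0% to 64.5% of their summed FPKM. It encodes another Mxd repressor and lies on chromosome 5 (minus strand) between positions 34173883 and 34187720. Its level was 15.9 and 16.4 FPKM in shNC against 12.5 and 14.7 FPKM in shNAT10. The shNAT10 libraries were lower and farther apart than the shNC libraries. *Mxd4* had a log2 fold change of -0.25 (standard error 0.11; 95% interval -0.55 to 0.05; adjusted p = 0.367 by limma), which did not pass the threshold. It was -0.36 without shNAT10-2 and -0.14 without shNAT10-1. The antisense gene *Gm42846* shares exons with *Mxd4* and was at 36.4 and 41.1 FPKM in shNC against 26.7 and 30.2 FPKM in shNAT10, also lower in both shNAT10 libraries. No source says that the counting used strand, so fragments of *Mxd4* and *Gm42846* cannot be told apart where they overlap.

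*Mnt*, which encodes a widely expressed repressor that occupies Max in dividing and resting cells, lies on chromosome 11 (plus strand) between positions 74830920 and 74845725. Its level was 1.67 and 1.27 FPKM in shNC against 0.826 and 1.10 FPKM in shNAT10. The nearest values of the groups were 1.27 and 1.10 FPKM, closer to each other than the libraries within either group. The log2 fold change of -0.57 had a 95% interval of -1.25 to 0.12 (adjusted p = 0.376 by limma) and did not pass the threshold, although it passed by limma-voom on the recovered fragments.

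*Mga*, which encodes a very large Max partner with a T-box domain beside its Max-binding region, lies on chromosome 2 (plus strand) between positions 119897228 and 119969581, with 15340 bases of exon. Its level was 3.82 and 3.90 FPKM in shNC against 4.28 and 4.34 FPKM in shNAT10. The libraries of each group were almost equal, and both shNAT10 libraries were higher. With a log2 fold change of 0.15 (standard error 0.12; 95% interval -0.16 to 0.47; adjusted p = 0.574 by limma), *Mga* did not pass the threshold.

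*Odc1*, the target gene of the set, lies on chromosome 12 (plus strand) between positions 17544794 and 17551505. Its level was 49.4 and 41.9 FPKM in shNC against 54.8 and 59.0 FPKM in shNAT10. Both shNAT10 libraries were above both shNC libraries, and the step from the higher shNC to the lower shNAT10 library was smaller than the gap between the shNC libraries. *Odc1* was higher by 0.32 on the log2 scale (standard error 0.11; 95% interval 0.02 to 0.62; adjusted p = 0.279 by limma), opposite in sign to that of *Myc*. It was 0.20 without shNC-2 and 0.44 without shNC-1, and with 1 library left out it passed the threshold only without shNC-1. It did not pass without the trend of limma, or after the libraries were scaled to the same protein-coding FPKM total or quantile normalized.

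The sequence of *Odc1* limits how far its value can be assigned. Of the runs of 50 bases in its transcripts, 24.2% occur also in 14 other genes, 12 of them annotated as pseudogenes, with *Gm7993* sharing the most. The 13 of these genes that the table lists summed to 32.1 and 27.7 FPKM in shNC against 38.2 and 40.8 FPKM in shNAT10, so they were also higher in both shNAT10 libraries. The share of reads exchanged between *Odc1* and these copies was not tested. *Mxd4* shares 5.36% of its runs with 8 genes and *Mxi1* 2.13% with 1 gene, and the other 7 members share none with any gene at 20 runs or more.

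**Figure D2:**
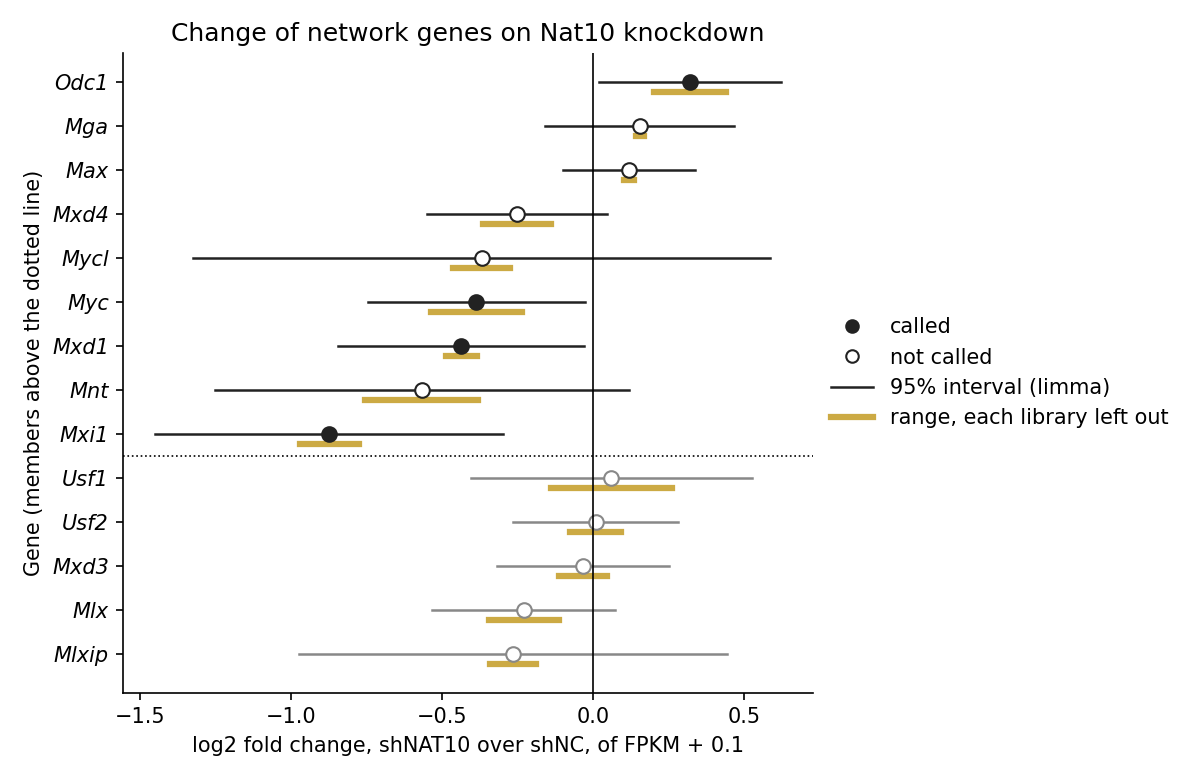
Log2 fold change of shNAT10 over shNC on the log2(FPKM + 0.1) scale for the 9 tested members (above the dotted line) and 5 other network genes (below it), with 95% intervals from limma as thin lines, the range with each library left out as ochre bars, and filled circles for DEGs. *Mxi1*, *Mxd1* and *Myc* lie below 0 and *Odc1* above it, while the 5 other network genes are open circles between -0.27 and 0.06.

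Grouped by role, the summed FPKM of the Myc family was 13.5 and 14.3 in shNC and 11.8 and 9.58 in shNAT10. The summed FPKM of the 5 antagonists was 25.7 and 25.4 in shNC and 20.2 and 22.7 in shNAT10. Both sums were lower in both shNAT10 libraries. *Mxd3*, an Mxd gene outside the set, is left out of these sums and of the ratios and shares below. It was at 10.9 and 11.6 FPKM in shNC against 11.6 and 10.4 FPKM in shNAT10. The ratio of the Myc family to the antagonists was 0.527 and 0.562 in shNC and 0.581 and 0.421 in shNAT10, so the shNAT10 libraries lay on either side of the shNC libraries (mean 0.544 ± 0.024 and 0.501 ± 0.113, SD, n = 2 each; exact permutation p = 1). The direction of the ratio depended on the library: its log2 difference was -0.14 with all libraries and 0.09 without shNAT10-2.

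Within the antagonists, *Mxd1*, *Mxi1* and *Mnt* together summed to 5.91 and 5.12 FPKM in shNC against 3.41 and 3.75 FPKM in shNAT10, 0.649 times the shNC mean. The share of *Mga* in the antagonist FPKM was 14.9% and 15.3% in shNC against 21.1% and 19.1% in shNAT10, while the share of *Mxd4* stayed within 62.0% to 64.5%. *Max* relative to the sum of its 8 partners in the set was 0.477 and 0.463 in shNC and 0.623 and 0.630 in shNAT10, 1.33 times the shNC mean. For the sum of *Mxd1*, *Mxi1* and *Mnt*, the share of *Mga* and the *Max* ratio, shNC and shNAT10 did not overlap (exact permutation p = 0.3333 each, the smallest possible). These sums and the *Max* ratio were chosen after their values had been seen and are given as a description of mRNA, not of protein.

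**Figure D3:**
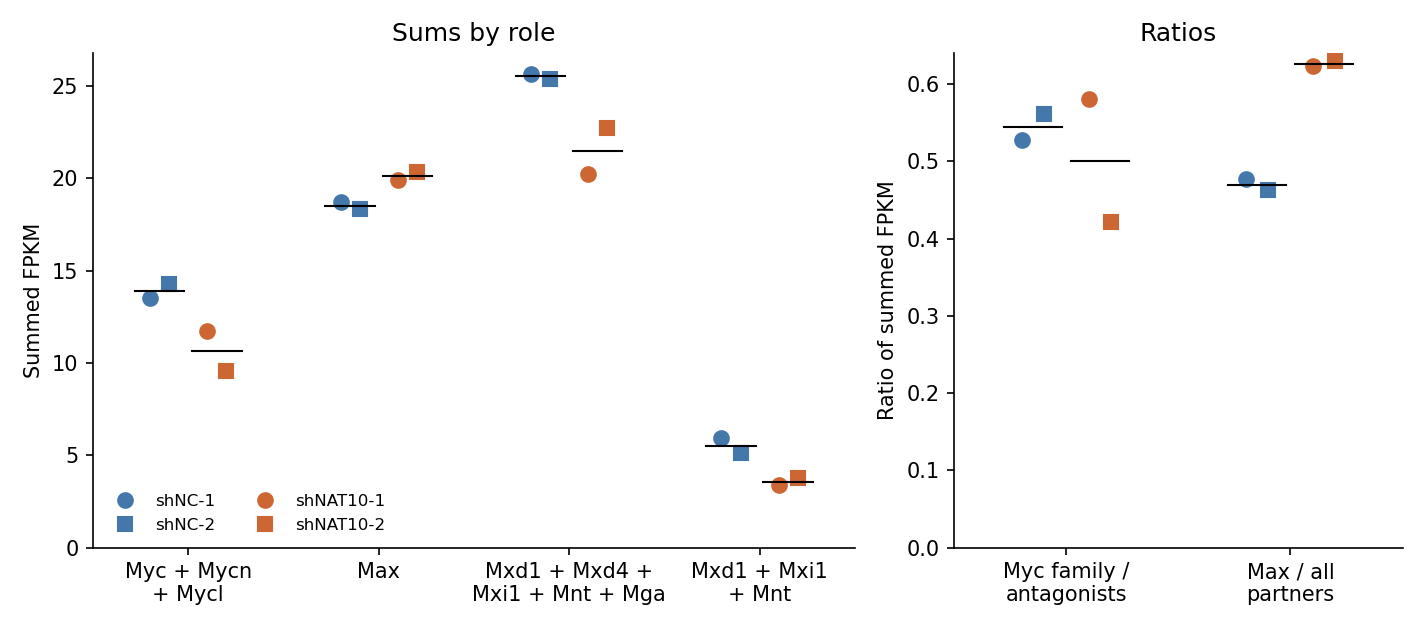
Summed FPKM by role (left) and ratios of summed FPKM (right) in each library, with shNC in blue, shNAT10 in orange and a bar at each group mean; both vertical axes start at 0. The ratio of the Myc family to the antagonists overlaps between groups (0.527 and 0.562 against 0.581 and 0.421). *Max* over its partners in the set (all partners in the axis label, without *Mxd3*) does not (0.477 and 0.463 against 0.623 and 0.630).

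Of 8 relatives of the network that are not in the set, 5 were tested and 0 were DEGs by limma (against 8.41% of all genes higher and 7.83% lower, so few or none of 5 genes would pass at the background rate), with 0 at an unadjusted p under 0.05 and 0 by limma-voom at the same threshold. *Mxd3*, the Mxd gene linked to S phase, was at 10.9 and 11.6 FPKM in shNC against 11.6 and 10.4 FPKM in shNAT10 (log2 fold change -0.03, adjusted p = 0.91), and its exons overlap *Prelid1* on the other strand, at a mean of 98.8 FPKM. *Mlx*, the Max-like partner of the glucose-responsive branch, was at 17.3 and 20.4 FPKM in shNC against 16.3 and 15.7 FPKM in shNAT10 (log2 fold change -0.23, adjusted p = 0.415). Its own partner *Mlxip* was at 0.685 and 0.718 FPKM in shNC against 0.603 and 0.533 FPKM in shNAT10 (log2 fold change -0.27, adjusted p = 0.656). *Usf1* and *Usf2*, which also bind E-boxes but as dimers without Max, had log2 fold changes of 0.06 (adjusted p = 0.894) and 0.01 (adjusted p = 0.979). *Mlxipl* had 6 fragments in all and *Bmyc* 1, and *Mycs* was listed at 0 in every library. Exons of *Mlx*, *Mlxip*, *Usf1* and *Usf2* also overlap exons of other genes. CACGTG was in the promoter windows of 2 of the 7 relatives with a window (28.6%), among them *Mlx*, 40 bases before its start site.

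The proteins that Myc and the Mxd factors recruit were represented by 21 genes, of which 0 were DEGs higher (against 8.41% of all genes) and 1 was lower (4.76%, against 7.83%), with a median log2 fold change of 0.03 against 0.01 over all genes. At an unadjusted p under 0.05 without the fold the limma counts were the same, and limma-voom on the recovered fragments at the same threshold gave 2 higher and 5 lower, where it called 10.1% of all genes higher and 9.34% lower. *Ncor1*, a scaffold of histone deacetylase complexes, was at 21.2 and 21.3 FPKM in shNC against 15.9 and 16.1 FPKM in shNAT10. The libraries of a group were nearly equal, and the log2 fold change was -0.41 (standard error 0.08; adjusted p = 0.134 by limma), passing the threshold with any 1 library left out.

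Of 25 genes listed for the turnover of Myc protein or mRNA or the activity of its gene, 24 were tested and 1 was not matched by its symbol. By limma 3 were DEGs higher in shNAT10 (12.5%, against 8.41% of all genes) and 0 were lower (against 7.83%), with a median log2 fold change of -0.01. With limma-voom 5 were higher and 2 lower, where it called 10.1% of all genes higher and 9.34% lower, and by limma 0 were lower at an unadjusted p under 0.05. *Skp2*, a ubiquitin ligase subunit that acts on Myc, was at 0.843 and 1.04 FPKM in shNC against 1.88 and 1.78 FPKM in shNAT10 (log2 fold change 0.90, adjusted p = 0.163). The list also holds *Tfap4*, a bHLH factor that is itself a target of Myc. *Tfap4* was at 3.47 and 2.67 FPKM in shNC against 4.71 and 5.56 FPKM in shNAT10 (log2 fold change 0.73, adjusted p = 0.189 by limma). *Aurka*, the mitotic kinase that shields N-Myc from degradation, was at 8.75 and 9.05 FPKM in shNC against 12.6 and 11.5 FPKM in shNAT10 (log2 fold change 0.43, adjusted p = 0.169). Genes were named from the cofactor, turnover, target and polyamine lists only if they were DEGs whose groups did not overlap. That all 3 were higher in both shNAT10 libraries follows from this rule, and none reached an adjusted p under 0.05 by limma. By limma-voom the adjusted p was 0.00305 for *Skp2*, 0.0265 for *Tfap4* and 0.0833 for *Aurka*.

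Genes induced by Myc did not move in 1 direction. Of 45 tested, 5 were DEGs higher and 6 were lower, 11.1% and 13.3% of the list against 8.41% and 7.83% of all genes, and the median log2 fold change was -0.04. Among the 6, *Nme2* had the lowest log2 fold change of the list (-1.38) but rests on 4 to 15 fragments per library. *Tfrc*, the transferrin receptor that takes up iron, was lower, at 143 and 156 FPKM in shNC against 98.7 and 98.0 FPKM in shNAT10 (log2 fold change -0.60, adjusted p = 0.0842). *Slc3a2*, the heavy chain of amino acid transporters, was lower, at 87.3 and 62.1 FPKM in shNC against 46.1 and 46.6 FPKM in shNAT10 (log2 fold change -0.67, adjusted p = 0.205 by limma). With each library left out its log2 fold change lay between -0.91 and -0.42. *Hk2*, a hexokinase of the first step of glycolysis, was lower, at 3.35 and 3.42 FPKM in shNC against 2.35 and 2.44 FPKM in shNAT10 (log2 fold change -0.48, adjusted p = 0.214). That all 3 were lower in both shNAT10 libraries follows from the rule for naming.

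The induced targets named by the same rule that were higher were *Umps*, *Shmt1* and *Dnph1*. *Umps*, which completes pyrimidine synthesis, was at 7.14 and 9.41 FPKM in shNC against 11.6 and 13.1 FPKM in shNAT10 (log2 fold change 0.58, adjusted p = 0.221). *Shmt1*, the cytosolic serine hydroxymethyltransferase, was at 11.9 and 8.005 FPKM in shNC against 15.02 and 15.2 FPKM in shNAT10 (log2 fold change 0.63, adjusted p = 0.253 by limma). With each library left out its log2 fold change lay between 0.35 and 0.91. *Dnph1*, a nucleotide hydrolase, was at 1.54 and 1.68 FPKM in shNC against 3.03 and 2.30 FPKM in shNAT10 (log2 fold change 0.68, adjusted p = 0.226 by limma). *Dnph1* rests on 22 to 45 fragments per library and did not pass by limma-voom (unadjusted p = 0.0914). That the groups of these 3 genes did not overlap also follows from that rule.

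Genes that Myc represses also split. Of 16 listed, 15 were tested, 5 were DEGs higher and 4 were lower, 33.3% and 26.7% of those tested against 8.41% and 7.83% of all genes, with a median log2 fold change of -0.03. *Gas1*, a growth arrest gene, was at 1.15 and 0.768 FPKM in shNC against 3.93 and 2.97 FPKM in shNAT10 (log2 fold change 1.76, adjusted p = 0.0927). *Btg2*, an antiproliferative gene and p53 target, was at 2.42 and 2.06 FPKM in shNC against 4.996 and 4.47 FPKM in shNAT10 (log2 fold change 1.05, adjusted p = 0.0895). *Cdkn2c*, an inhibitor of the G1 kinases, was at 7.61 and 6.49 FPKM in shNC against 9.79 and 10.2 FPKM in shNAT10 (log2 fold change 0.50, adjusted p = 0.181). That all 3 were higher in both shNAT10 libraries follows from the rule for naming.

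The named repressed targets that were lower were *Ndrg1*, *Ndrg2* and *Btg1*. *Ndrg1*, a stress-responsive gene named for its repression by N-Myc, was at 12.5 and 20.3 FPKM in shNC against 6.49 and 6.84 FPKM in shNAT10 (log2 fold change -1.25, adjusted p = 0.132). Its relative *Ndrg2* was at 11.9 and 16.0 FPKM in shNC against 7.53 and 7.51 FPKM in shNAT10 (log2 fold change -0.87, adjusted p = 0.129). For both, the shNC libraries differed more from each other than the shNAT10 libraries did. *Btg1*, an antiproliferative relative of *Btg2*, was at 1.53 and 1.87 FPKM in shNC against 1.15 and 1.00 FPKM in shNAT10 (log2 fold change -0.61, adjusted p = 0.27).

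The polyamine pathway places *Odc1* among its neighbours. Of 21 genes tested, 3 were DEGs higher and 1 was lower, 14.3% and 4.76% of the list against 8.41% and 7.83% of all genes, with a median log2 fold change of 0.06. *Odc1* is itself 1 of the 21 genes and 1 of the 3 that were higher, so its own call is counted in these shares. *Azin1*, the antizyme inhibitor that protects ornithine decarboxylase from degradation, was at 15.2 and 17.4 FPKM in shNC against 23.8 and 24.3 FPKM in shNAT10 (log2 fold change 0.56, adjusted p = 0.123). *Mtap*, which recycles the by-product of spermidine and spermine synthesis, was at 1.35 and 1.31 FPKM in shNC against 2.37 and 2.79 FPKM in shNAT10 (log2 fold change 0.91, adjusted p = 0.127). *Sat1*, the acetyltransferase that starts polyamine breakdown, was at 37.4 and 39.9 FPKM in shNC against 29.5 and 29.9 FPKM in shNAT10 (log2 fold change -0.38, adjusted p = 0.152). *Azin1*, *Mtap* and *Odc1* were the DEGs that were higher and *Sat1* the 1 that was lower, and the other 17 genes of the pathway did not pass the threshold. Of the genes named from the cofactor, turnover, target and polyamine lists, *Ncor1*, *Aurka*, *Tfrc*, *Btg2* and *Sat1* passed the threshold with any 1 library left out, and the others lost it without at least 1 library, all keeping their direction. Across these lists 0 genes had an adjusted p under 0.05 by limma and 19 did by limma-voom on the recovered fragments, against 7.88% of all genes. They were 1 of 21 cofactor genes, 3 of 24 turnover genes, 6 of 45 induced targets, 6 of 15 repressed targets and 3 of 21 polyamine genes tested.

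**Figure D4:**
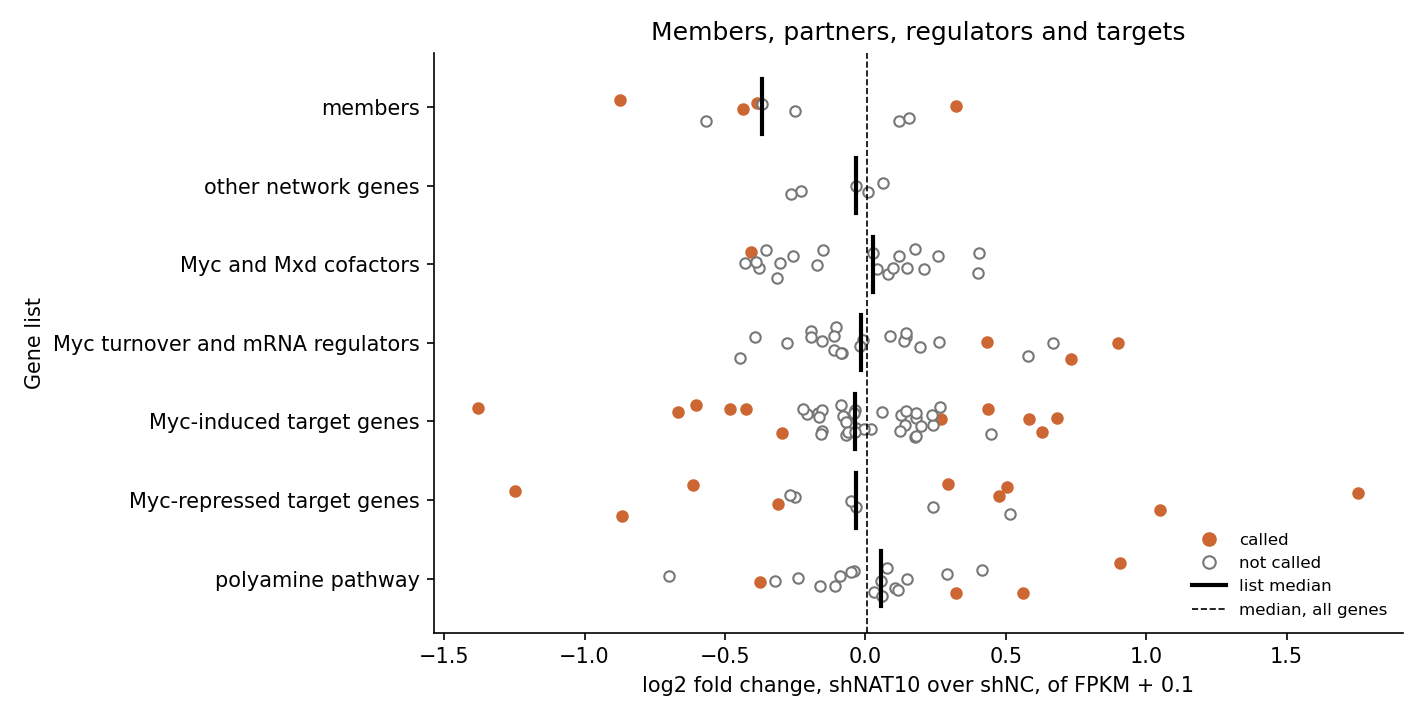
Log2 fold change of shNAT10 over shNC on the log2(FPKM + 0.1) scale for every tested gene of the 7 lists, with DEGs filled, a bar at each list median and a dashed line at the median of all genes (0.01). The member median lies at -0.37, while the medians of the other lists lie between -0.04 and 0.06 with DEGs on both sides in the target and polyamine lists.

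CACGTG was held by the promoter windows of 28.2% of the induced targets (11 of 39 with a window), 21.4% of the repressed targets, 21.4% of the polyamine genes, 22.2% of the turnover genes and 5.56% of the cofactor genes, against 11.2% of the tested genes. These shares describe the lists, several of which were drawn from knowledge of E-box targets, and the search covered 300 bases per start site.

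The genes whose pattern over the 4 libraries was nearest to that of *Myc*, by the Euclidean distance of centred log2(FPKM + 0.1) among 5245 protein-coding genes with a mean of at least 5 FPKM, were *Rraga* (distance 0.034), *Copb1* (0.056) and *Stt3a* (0.061). *Copb1*, a coat protein of Golgi vesicles, was at 41.9 and 44.4 FPKM in shNC against 35.1 and 29.8 FPKM in shNAT10. For *Odc1* they were *Supt16* (0.015), *Mfsd11* (0.019) and *Fkbp5* (0.019). *Supt16*, a subunit of the histone chaperone FACT, was at 36.4 and 30.9 FPKM in shNC against 40.7 and 43.3 FPKM in shNAT10. With 4 libraries many genes lie close to any pattern: 170 genes lay within 0.2 of *Myc* and 365 within 0.2 of *Odc1*.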

How the data were processed

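The Long RNA-seq libraries were prepared, according to the methods, from RNA depleted of rRNA, whereas the labels describe isolation of mRNA with an Oligotex kit and a directional kit, so the records differ. The submitters' processing notes name cutadapt, HISAT2, DESeq2 and mm10; versions, the counting program and the annotation are not given in the sources used here. The authors deposited FPKM for 53465 genes in 4 libraries. A second deposited table, which holds FPKM for fewer genes with the authors' own log2 fold changes, p-values and adjusted p-values, was not used.

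Fragments were recovered with exon lengths from GENCODE M21 (GRCm38), which matched 53360 genes. Of the values under 50 fragments, 96.0% to 96.6% came out within 0.02 of a whole number. For 1 kb of exon, the floor of 3 fragments equals 0.196 to 0.255 FPKM, which covers counting error only. A median-ratio scaling between libraries was already part of the deposited values.

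Libraries were grouped by their titles. log2(FPKM + 0.1) was compared, for genes whose mean FPKM reached 0.1, with limma 3.58.1 in R 4.3.3 (lmFit, eBayes with trend), two-sided, without a replicate term, with Benjamini-Hochberg adjustment over 20116 genes. Fold changes on this scale understate the change of low genes. The fit was tested on simulated data. Ratios of sums were compared by exact permutation over libraries. Summaries and plots used Python 3.11.15 with pandas 2.3.3 and matplotlib 3.10.9. Alternatives were pseudocounts of 1 and 0.01, no filter, a minimum mean of 1 FPKM, 3 rescalings, no trend, a replicate block, limma-voom on the fragments and each library left out. Whether libraries of the same number deviate together was checked over the tested genes (correlation 0.007), and they did not.

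The members and lists were chosen with earlier results of these data known. Genes named are all members, *Nat10*, all 8 relatives of the network, up to 6 DEGs per further list with the largest absolute log2 fold change, a mean of 1 FPKM or more and no overlap between groups, and the 3 genes nearest in pattern to *Myc* and to *Odc1*. Marker genes, rRNA-related loci, *Nme2* and genes that overlap members or share sequence with them are named beside these.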

Additional observations from a re-analysis of the deposited data

How the results depend on the processing

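No member changed direction under any alternative, and of 125 member values 102 kept their side of the threshold, 21 lost it and 2 gained it. The 4 member DEGs became 2 without the trend, where *Myc* and *Odc1* did not pass. They also became 2 with the libraries scaled to the same protein-coding FPKM total and 2 with the replicate number as a block, where *Mxd1* and *Odc1* did not pass. The block changed no other member call, and same-numbered libraries share only a number here. With each library left out the member DEGs numbered 0 to 1, the context-list DEGs 9 to 30 (28 with all libraries) and the DEGs over all genes 2007 to 3393 (3267 with all libraries; 2007 without shNAT10-1). The context lists had 9 DEGs without shNAT10-1 or without shNAT10-2 and 18 without the trend, where all genes had 2007, 2186 and 2751. The count of genes with an adjusted p under 0.05 was 88, and ranged from 0 (with either other pseudocount, no filter, no trend, the block or a library left out) through 140 and 151 (same protein-coding total, quantile normalization) and 296 (mean FPKM of at least 1) to 1582 (limma-voom). The log2 difference of the Myc family to antagonist ratio was -0.37 to 0.094 without 1 library (positive without shNAT10-2), and its sign on the mean log2 scale cannot be read: that difference was 0.24 with *Mycn*, whose log2 value at 0 or 1 fragment is set by the pseudocount, and 0.017 without it, an alternative chosen after seeing the data. Log2 fold changes near 0 changed sign for *Mxd3* (-0.11 to 0.046 with each library left out; 0.012 without shNC-2, 0.046 without shNAT10-2), *Usf1* (-0.14 to 0.26; -0.14 without shNC-1, -0.036 without shNAT10-2) and *Usf2* (-0.076 to 0.092; -0.076 without shNAT10-2). The cause of these shifts was not tested, other than that leaving out a library leaves 3. Among the members, *Mycn* (2 fragments in all) and *Mycl* (72) had the fewest fragments.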
